A study of Mus musculus with 10 samples.

Results

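The cytosolic ribosomal protein genes are the 79 rows, of 24901 in the deposited table, whose symbol is that of a protein of the large (47 genes) or small (32 genes) subunit of the cytoplasmic ribosome. They were chosen by symbol alone, and 3 of them, Rpl3l, Rpl39l and Rps27l, are paralogs named after another member. Mouse embryonic stem cells took up 2 mM bromouridine for 10 min, and RNA made in that time was pulled down through the bromouridine and sequenced without its ribosomal RNA (Bru-seq). Values are intronic RPKM, the reads in the introns of a gene scaled by intron length and by library depth. The 10 samples form 5 groups of 2.

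EloA_K754M and EloA_K754R cells carry an edited Elongin A, in which lysine K754 is methionine or arginine, and EloA_WT cells carry the wild-type protein. Elongin A helps RNA polymerase II to elongate. Eed_null cells are titled as lacking Eed, without which Polycomb repressive complex 2 does not methylate histones, and CJ7_WT is a wild-type line. All groups grew with LIF, 1 µM PD0325901 and 3 µM CHIR99021. The labels conflict. The background line is CCE28 for EloA_WT and Eed_null and CJ7 for the other 3 groups, the growth protocol names CJ7 throughout, and Eed_null carries the genotype "EloA null". Line and genotype therefore cannot be told apart in the comparisons with EloA_WT or in Eed_null against CJ7_WT. The labels do not give the number of clones behind an edited line. The labels name no separate cultures for the replicates, and a p-value here covers the spread between these libraries, which may be technical. EloA libraries have a column each, while Eed_null and CJ7_WT have 1 pooled column each.

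Ribosomal proteins are for the most part made in equal amounts for assembly with ribosomal RNA in the nucleolus, and their genes are among the most transcribed in dividing cells. Their mRNAs begin with a run of pyrimidines (a terminal oligopyrimidine or TOP start), through which the mTOR pathway sets their translation. Many of these genes carry small nucleolar RNAs (snoRNAs) in their introns. Processed copies of ribosomal protein genes are common in the mouse genome but have no introns, so intronic reads do not arise from them.

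Because of the TOP start, the reference sequence around the starts is given first. RefSeq start windows (250 bases before to 50 after each annotated start, GRCm38.p6) were found for 58 of the 79 genes. A pyrimidine tract, here a C followed by at least 6 C or T on the gene's strand within 40 bases of the start, stood in 47 of the 58 (81.0%), against 37.5% of 27025 genes of the whole table of windows. Such a tract may lie before or after the annotated start, so this share is not the share of genes with a TOP start. CCGGAAG, the core of sites for ETS factors such as GABP, stood on either strand in 25 (43.1%) against 9.93% of all genes. AAGATGGC, part of the YY1 site, stood on either strand in 5 (8.62%) against 3.19%. TATAAA, searched on the gene's strand 50 to 10 bases before the start, stood in 0 of the 58 and in 2.89% of all genes. In Rplp0, Rps2 and Rpl36a it stands shortly after the annotated start, outside the stretch searched. The 0 therefore depends on where starts are annotated. The windows below, 60 bases before to 30 after the start, belong to the 5 members that passed the test in EloA_K754R cells and to the 5 with a window among the 6 with the smallest change there (Rps3a is the other). Capitals mark the pyrimidine tract nearest the start within the printed bases, and 41 of the 58 members have one there. A tract more than 30 bases after the start would not show. Where 2 starts are annotated, the one with the longer tract is shown.

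Rpl11, chr4:136053364-136053453, minus strand: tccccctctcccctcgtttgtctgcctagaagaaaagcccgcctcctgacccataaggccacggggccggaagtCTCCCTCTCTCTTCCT
Rpl22, chr4:152325666-152325755, plus strand: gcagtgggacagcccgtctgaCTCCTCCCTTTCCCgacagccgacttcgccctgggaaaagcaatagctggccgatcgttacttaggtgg
Rpl13a, chr7:45128716-45128805, minus strand: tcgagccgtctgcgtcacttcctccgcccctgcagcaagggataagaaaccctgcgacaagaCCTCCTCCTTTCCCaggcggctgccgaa
Rpl23, chr11:97782410-97782499, minus strand: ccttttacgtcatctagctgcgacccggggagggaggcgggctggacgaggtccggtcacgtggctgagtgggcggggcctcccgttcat
Rpl27, chr11:101442185-101442274, plus strand: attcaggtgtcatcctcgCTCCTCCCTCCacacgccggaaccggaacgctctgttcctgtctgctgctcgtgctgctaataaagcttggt
Rpl28, chr7:4792905-4792994, plus strand: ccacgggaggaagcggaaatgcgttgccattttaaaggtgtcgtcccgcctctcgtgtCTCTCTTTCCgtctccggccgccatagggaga
Rpl15, chr14:18270957-18271046, minus strand: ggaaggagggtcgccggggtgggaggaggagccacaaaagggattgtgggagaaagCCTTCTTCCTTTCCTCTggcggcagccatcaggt
Rps24, chr14:24490693-24490782, plus strand: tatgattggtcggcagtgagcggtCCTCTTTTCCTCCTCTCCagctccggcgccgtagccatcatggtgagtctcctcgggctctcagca
Rpl24, chr16:55966215-55966304, plus strand: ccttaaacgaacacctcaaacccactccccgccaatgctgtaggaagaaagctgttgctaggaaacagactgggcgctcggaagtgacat
Rps27l, chr9:66946026-66946115, plus strand: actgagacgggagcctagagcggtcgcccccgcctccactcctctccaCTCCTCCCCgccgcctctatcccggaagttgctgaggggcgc

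Of these 10 windows those of Rpl11 and Rps27l hold CCGGAAG, before the tract in Rpl11 and after it in Rps27l. Among the 5 members that passed the test, Rpl23 has no tract in the printed bases and the others have tracts of 11 to 16 bases. Among the 5 with a small change, Rpl24 has none in the printed bases and the others have tracts of 9 to 18 bases. The marked tracts of Rpl22, Rpl27, Rps24 and Rps27l lie wholly before the annotated start. A match of letters is a description of the reference and was not measured in these cells.

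The members were among the most labelled genes in every column. Their median was 23.1 and 17.0 RPKM in the EloA_K754M libraries, 16.9 and 16.2 in EloA_K754R, and 27.4 and 23.5 in EloA_WT. It was 13.4 RPKM in pooled Eed_null and 9.09 in pooled CJ7_WT. The median over all tested genes lay between 0.957 and 1.23 RPKM, and the median member stood above at least 97.3% of them in each column. Summed over the 79 members, the level was 2235 and 2006 RPKM in EloA_K754M, 1527 and 1587 in EloA_K754R, and 2590 and 2294 in EloA_WT. The sum was 1209 RPKM in pooled Eed_null and 834 in pooled CJ7_WT. The share of all recovered intronic reads had the same order, at 0.362% and 0.325% in EloA_K754M, 0.265% and 0.281% in EloA_K754R and 0.422% and 0.399% in EloA_WT, with 0.220% in Eed_null and 0.165% in CJ7_WT. In bulk RNA, fewer cells making a transcript and less of it per cell cannot be told apart.

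**Figure D1:**
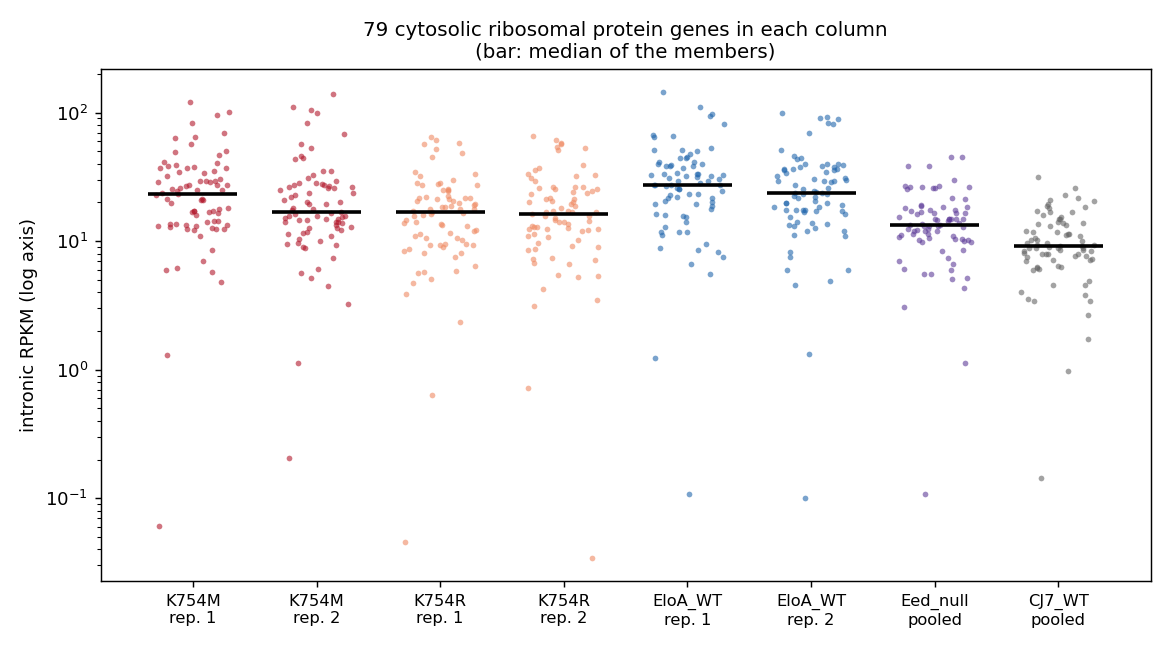
Intronic RPKM (log axis) of the 79 members in each column, with the 6 EloA libraries on the left and the pooled Eed_null and CJ7_WT columns on the right; points are genes and bars are medians. The medians lie between 16.2 and 27.4 RPKM in the EloA libraries, against 13.4 in Eed_null and 9.09 in CJ7_WT, and the lowest point in each column is Rpl3l.

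Although most of their proteins enter the ribosome in equal amounts, the members differed widely in intronic level. The mean over the 6 EloA libraries ran between 1.06 and 97.1 RPKM among the 78 tested members, with a median of 21.1, and the 5 highest held 20.1% of the summed level. Rpl41, the shortest ribosomal protein, was highest, at 122 and 105 RPKM in EloA_K754M, 64.2 and 65.4 in EloA_K754R and 145 and 81.0 in EloA_WT. Its listed introns span only 50 bp and hold 52 to 140 reads a library, and its EloA_WT libraries differ more than those of either mutant. Rpl30, a snoRNA host, had 102 and 67.9 RPKM in EloA_K754M, 61.4 and 56.8 in EloA_K754R and 98.4 and 89.2 in EloA_WT. Rps9, of the small subunit, had 69.8 and 111 RPKM in EloA_K754M, 48.9 and 60.7 in EloA_K754R and 80.9 and 91.4 in EloA_WT. In both genes the EloA_K754R libraries are the lowest, and Rps12 and Rpl8 stood at a like level. Rpl8, which lies near the peptidyl transferase centre, stood at 63.0 and 140 RPKM in EloA_K754M, so that its EloA_K754M libraries differ more than the groups do.

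At the low end stood Rpl11, with 1.30 and 1.13 RPKM in EloA_K754M, 0.641 and 0.719 in EloA_K754R and 1.24 and 1.32 in EloA_WT. Rps2, Rpl29, Rpl24 and Rps27l were the other tested members at the bottom, each between 3.23 and 8.90 RPKM in every EloA library. Rpl11 and Rpl24 are the members with the longest listed introns, 44948 and 73250 bp, against a median of 2430 bp over the 79. Both lengths exceed the introns of GENCODE M21 (22467 and 27591 bp), and whether other transcripts add to their levels was not tested. Rpl3l, a paralog of Rpl3 known from striated muscle, stood at 0.0605 and 0.206 RPKM in EloA_K754M, 0.0458 and 0.0342 in EloA_K754R, 0.108 and 0.100 in EloA_WT, 0.107 in Eed_null and 0.145 in CJ7_WT. It was under the filter of a mean of 0.1 RPKM and was the 1 member not tested in the EloA libraries.

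Several facts of the whole data set bear on these values. Recovered intronic reads numbered 27120219 to 40181367 in the EloA libraries, 73969112 in pooled Eed_null and 89135248 in pooled CJ7_WT, and a tested member had 47 reads or more in each library (median 702). The listed intron length was within 1.2-fold of GENCODE for 24 of the 79 members, 1.8 to 2.2 times as long for 26 and more than 2.2 times as long for 17. Reads of overlapping transcripts may thus be counted more than once, and whether that accounts for the longest of these lengths was not tested. Of 13 embryonic stem cell markers, 13 were above 0 in every column (summed 246 and 386 RPKM in EloA_K754M, 228 and 249 in EloA_K754R, 254 and 277 in EloA_WT, 190 in Eed_null, 213 in CJ7_WT). The growth protocol names fibroblast feeders that were then depleted, while the extraction protocol names feeder-free dishes. Of 24 fibroblast (feeder) markers, 22 were above 0 in every column, and Twist1 and Lum were each at 0 in 1 EloA_WT library. Their sum was 16.6 and 13.0 RPKM in EloA_K754M, 17.0 and 13.1 in EloA_K754R, 10.4 and 8.76 in EloA_WT, 18.3 in Eed_null and 15.8 in CJ7_WT. It was thus higher in the mutants, where the ribosomal protein genes stood lower, and its part in the results was not tested. Elongin A itself (Tceb3) stood at 1.46 and 1.98 RPKM in EloA_K754M, 1.12 and 1.30 in EloA_K754R and 1.83 and 2.03 in EloA_WT, which does not check a substitution. Eed stood at 7.97 RPKM in Eed_null and 10.0 in CJ7_WT, and the labels do not say which part was deleted.

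The spread between the libraries of a group differed by group. In EloA_K754M the members differed by a median SD of 0.30 on the log2 scale, against 0.16 for all tested genes. In EloA_K754R the median SD was 0.12 and in EloA_WT 0.16, against 0.14 and 0.16 for all tested genes. EloA_K754M replicate 2 was lower than replicate 1 by a median of 0.36 (log2 difference −0.36), and 17 of the 78 tested members were higher in it. The small-subunit genes Rps21 (39.2 and 98.6 RPKM) and Rps15 (13.0 and 28.0 RPKM) and the large-subunit gene Rpl8 were among those 17, by 1.33, 1.10 and 1.15. Rps29 (13.4 and 6.07 RPKM) and Rps6 (29.2 and 15.4 RPKM) differed the other way, by −1.13 and −0.92. In EloA_K754R, Rpl39l (2.35 and 7.35 RPKM) and Rps21 (20.6 and 39.3 RPKM) stood apart, by 1.60 and 0.93.

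**Figure D2:**
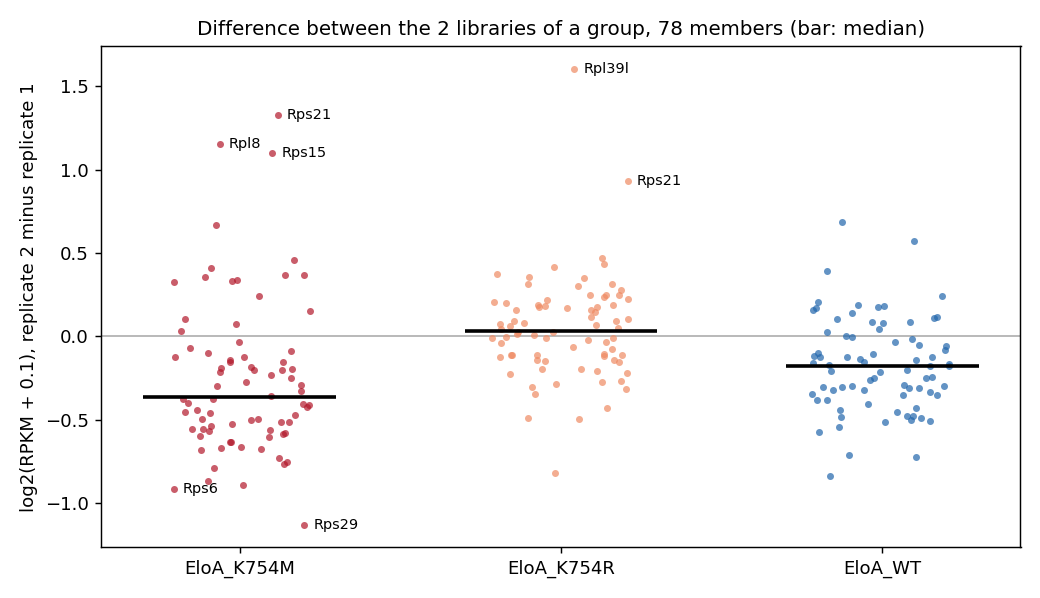
Difference between the 2 libraries of each EloA group (replicate 2 minus replicate 1, log2 of RPKM + 0.1) for the 78 tested members; points are genes, bars are medians, and members beyond 0.9 are named. The median is −0.36 in EloA_K754M, 0.03 in EloA_K754R and −0.18 in EloA_WT.

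The comparison of EloA_K754R with EloA_WT asks how the arginine form, which keeps the charge of lysine, goes with transcription of these genes. Of 78 members, 5 fell at an adjusted p under 0.05 (limma on log2 of RPKM + 0.1, Benjamini-Hochberg over all 15161 genes), and 0 rose. In all, 46 members (59.0%) had an unadjusted p under 0.05, as did 25.1% of all genes. The 5 are 6.41% of the members, and 2.79% of all genes were called lower. The median log2 change of the members was −0.63, against −0.14 for all genes. It was −0.24 after quantile normalization and −0.30 after the trend over intron length was taken out, with all genes at 0.02 and 0.01. All 78 log2 changes were below 0 with the deposited scaling, against 64.3% of all genes, but 75 were so with equal library medians, 66 after quantile normalization and 74 without that trend. Both EloA_K754R libraries lay below both EloA_WT libraries for 76 members, against 38.8% of all genes, and the exceptions were Rps27l and Rpl36 (16.0 and 11.3 RPKM in EloA_K754R, against 23.2 and 14.0 RPKM in EloA_WT). The fibroblast marker list stood higher, with a median log2 change of 0.55 in EloA_K754R and 0.41 in EloA_K754M.

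Rpl23, a large-subunit protein also known to bind Mdm2, had 18.7 and 20.3 RPKM in the EloA_K754R libraries, against 38.6 and 37.7 RPKM in EloA_WT. Its log2 change of −0.97 (SE 0.14) had an adjusted p of 0.0387 in limma, and the groups are far apart beside the gap within each. Rpl27, another large-subunit gene, had 13.9 and 14.6 RPKM in the EloA_K754R libraries, against 39.4 and 32.0 RPKM in EloA_WT (−1.31, SE 0.20, limma adjusted p = 0.0401). Both genes lie on chromosome 11. The other 3 do not. Rpl22, which is needed for the development of some mouse T cells, had 9.30 and 9.23 RPKM in the EloA_K754R libraries, against 16.3 and 16.8 RPKM in EloA_WT (−0.83, SE 0.13, limma adjusted p = 0.0401). Its listed intron length is 5423 bp, against 5419 bp in GENCODE. Libraries of the groups do not overlap for any of Rpl23, Rpl27 and Rpl22.

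Rpl13a, a snoRNA host often used as a reference gene in PCR, had 7.47 and 6.74 RPKM in the EloA_K754R libraries, against 11.8 and 12 RPKM in EloA_WT (−0.74, SE 0.12, limma adjusted p = 0.0421). Rpl11, which with Rpl5 and 5S ribosomal RNA binds Mdm2, had 0.641 and 0.719 RPKM in the EloA_K754R libraries, against 1.24 and 1.32 RPKM in EloA_WT (−0.82, SE 0.14, limma adjusted p = 0.0446). For Rpl13a the listed introns are 9808 bp against 1090 bp in GENCODE, and for Rpl11 44948 against 22467 bp, and whether other transcripts add to either value was not tested. The 5 calls lie close to the threshold. With any 1 of the 6 libraries left out, a group can be down to 1 library. None of the calls held there, and few were left over all genes. The log2 changes of the 5 then lay between −1.46 and −0.66. Without the genes of chromosome 11 limma called no member, and calls over all genes went from 527 of 15161 to 204 of 13847. No member was called either with equal library medians (324 of 15161 genes called), after quantile normalization (333), or with the trend over intron length taken out (242 of 14915).

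**Figure D3:**
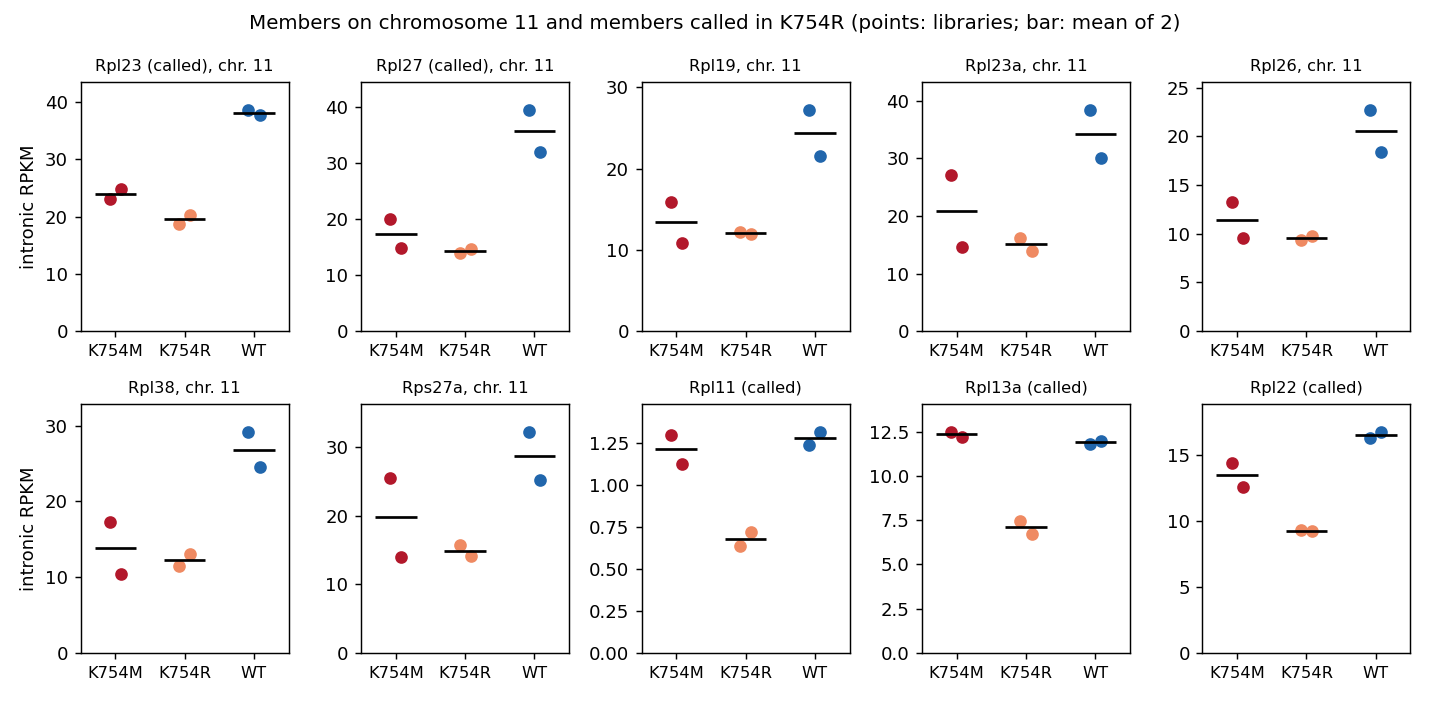
Intronic RPKM of the 7 members on chromosome 11 and of the 5 members called in EloA_K754R against EloA_WT (2 genes are both), in EloA_K754M, EloA_K754R and EloA_WT; points are libraries and bars are means of 2. Both EloA_K754R libraries lie below both EloA_WT libraries in each panel. For the 5 called members both EloA_K754M libraries lie above both EloA_K754R libraries, by little for Rpl27 (14.8 against 14.6 RPKM where they are closest).

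Several members with changes as large did not pass the test. Rps29 had 4.70 and 5.35 RPKM in the EloA_K754R libraries, against 14.0 and 11.2 RPKM in EloA_WT (log2 change −1.30, limma adjusted p = 0.104). Rpl39l, a paralog of Rpl39 known from mouse male germ cells, had 2.35 and 7.35 RPKM in the EloA_K754R libraries, against 8.17 and 13.2 RPKM in EloA_WT (−1.29, SE 0.54, limma adjusted p = 0.209). The EloA_K754R libraries of Rpl39l stand far apart, and both lie below EloA_WT. On chromosome 11, Rpl23a had 16.2 and 14.0 RPKM in the EloA_K754R libraries, against 38.4 and 30.1 RPKM in EloA_WT (−1.17, limma adjusted p = 0.0962). Rpl38, a protein needed for axial patterning in mice, had 11.5 and 13.0 RPKM in the EloA_K754R libraries, against 29.2 and 24.5 RPKM in EloA_WT (−1.12, limma adjusted p = 0.0741). Rpl26 had 9.36 and 9.76 RPKM in the EloA_K754R libraries, against 22.7 and 18.4 RPKM in EloA_WT (−1.09, limma adjusted p = 0.0519). For all of these the groups do not overlap. Rpl23a, Rpl38 and Rpl26 passed in an alternative with a replicate block (limma adjusted p = 0.0372, 0.0488 and 0.0302). That fit called 1777 of 15161 genes, against 527 without the block, and the labels do not say that replicate numbers mark a pairing.

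The smallest changes belonged to Rps27l, a paralog of Rps27 known to be induced by p53, to Rps24 and to Rpl24. Rps27l had 5.91 and 5.45 RPKM in EloA_K754R, between the 7.52 and 4.55 RPKM of EloA_WT (−0.04, SE 0.25, limma adjusted p = 0.938). Its namesake Rps27 had 13.7 and 13.6 RPKM in the EloA_K754R libraries, against 27.1 and 19.9 RPKM in EloA_WT (−0.76, limma adjusted p = 0.149). Rps27l made up 30.1% and 28.6% of the summed level of this pair in EloA_K754R, above the 21.7% and 18.6% of EloA_WT. The share was 22.2% and 26.5% in EloA_K754M, also above both EloA_WT libraries, 23.8% in Eed_null and 30.1% in CJ7_WT. Neither mutant overlaps EloA_WT in that share, which carries no test. Rps24, mutated in some human Diamond-Blackfan anaemia, had 34.7 and 37.0 RPKM in the EloA_K754R libraries, against 39.8 and 39.3 RPKM in EloA_WT (−0.14, limma adjusted p = 0.644). Rpl24 had 5.10 and 5.25 RPKM in the EloA_K754R libraries, against 5.59 and 5.92 RPKM in EloA_WT (−0.15, limma adjusted p = 0.498). Rps24, Rpl24 and Rps27l turned above 0 with equal library medians or quantile normalization. Rps3a had 14.2 and 14.3 RPKM in EloA_K754R and 19.3 and 16.2 RPKM in EloA_WT (−0.31, limma adjusted p = 0.346). Rpl15 had 22 and 21.4 RPKM in EloA_K754R and 32.8 and 23.5 RPKM in EloA_WT (−0.35, limma adjusted p = 0.477). Rpl28 had 6.46 and 7.23 RPKM in EloA_K754R and 9.54 and 8.20 RPKM in EloA_WT (−0.37, limma adjusted p = 0.244). For these 3 the EloA_K754R libraries lay below both EloA_WT libraries, by little beside the gap within EloA_WT for Rps3a and Rpl15.

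Among members with well-known roles the picture was like that of the family. Rps6, the target of S6 kinases, had 21.4 and 17.2 RPKM in the EloA_K754R libraries, against 32.3 and 26.1 RPKM in EloA_WT (−0.59, limma adjusted p = 0.323). Rps19, the gene most often mutated in human Diamond-Blackfan anaemia, had 24.7 and 26.5 RPKM in the EloA_K754R libraries, against 33.7 and 33.6 RPKM in EloA_WT (−0.39, limma adjusted p = 0.180). Rpl5 had 27.6 and 32.8 RPKM in the EloA_K754R libraries, against 44.6 and 38.7 RPKM in EloA_WT (−0.46, limma adjusted p = 0.262). Libraries of the groups do not overlap for any of the 3. The same holds for the next 3. Rpl3, at the peptidyl transferase centre, had 58.4 and 54.3 RPKM in the EloA_K754R libraries, against 94.6 and 83.6 RPKM in EloA_WT (−0.66, limma adjusted p = 0.209). Rplp0, the base of the P stalk that recruits elongation factors, had 10.2 and 13.0 RPKM in the EloA_K754R libraries, against 21.6 and 17.4 RPKM in EloA_WT (−0.74, limma adjusted p = 0.0938). Rpsa, also known as the laminin receptor precursor, had 29.8 and 25.6 RPKM in the EloA_K754R libraries, against 44.3 and 35.7 RPKM in EloA_WT (−0.52, limma adjusted p = 0.331).

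The median differed little between subunits and between snoRNA hosts and other members, and more by chromosome. The median change in EloA_K754R was −0.66 for 46 large-subunit and −0.59 for 32 small-subunit members, and the 5 calls were in the large subunit. It was −0.60 for the 27 listed snoRNA hosts and −0.64 for the other 51 tested members. It was −1.09 for the 7 members on chromosome 11, the lowest of them −1.31 and the highest −0.93, and −0.59 for the 71 elsewhere. Other genes of chromosome 11 had a median of −0.56 in EloA_K754R, against −0.10 for other genes elsewhere, so the members on this chromosome stood low beside a chromosome that stood low as a whole. Called lower were 2 of the 7 members and 150 of 1307 other genes of chromosome 11. Elsewhere 3 of 71 members and 242 of 12923 other genes were. Among the 78 members, the change was nearly unrelated to intron length (Spearman rho 0.08) and to level (rho 0.05), values over genes that share the 6 libraries.

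In EloA_K754M against EloA_WT, the methionine form, 0 of 78 members were called by limma, with 0.204% of all genes called lower. The median log2 change was −0.29, against −0.06 for all genes, and it was −0.19 to −0.16 under the other scalings. It was −0.14 without EloA_K754M replicate 2, −0.16 without EloA_WT replicate 1 and −0.48 without EloA_K754M replicate 1. For 62 members the change was below 0 with the deposited scaling (79.5%, against 57.3% of all genes), and for 54 to 57 under the other scalings. Both EloA_K754M libraries lay below both EloA_WT libraries for 32 members (41.0%, against 27.2% of all genes) and above both for 3. At an unadjusted p under 0.05 stood 11 members (14.1%) and 15.4% of all genes. A fit to the recovered reads (limma with voom) called Rpl23 and Rpl27, and a fit to genes with at least 1000 bp of introns called Rpl27, both chosen after seeing the data. Over all genes these fits called 349 of 14915 and 300 of 13731.

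The lowest members in EloA_K754M again included genes of chromosome 11. Rpl27 had 19.9 and 14.8 RPKM in EloA_K754M, against 39.4 and 32.0 in EloA_WT (−1.05, SE 0.20, limma adjusted p = 0.108). Rpl38 had 17.3 and 10.4 RPKM in EloA_K754M, against 29.2 and 24.5 in EloA_WT (−0.99, limma adjusted p = 0.174). Rpl19 had 15.9 and 10.9 RPKM in EloA_K754M, against 27.2 and 21.6 in EloA_WT (−0.87, limma adjusted p = 0.167). In each the groups do not overlap, and the EloA_WT values are the ones also used for EloA_K754R. Rpl26 had 13.3 and 9.57 RPKM in EloA_K754M, against 22.7 and 18.4 in EloA_WT (−0.85, limma adjusted p = 0.150). Rpl23a had 27.2 and 14.6 RPKM in EloA_K754M, against 38.4 and 30.1 in EloA_WT (−0.77, limma adjusted p = 0.332). Rpl35, of chromosome 2, followed with 13.6 and 9.98 RPKM in EloA_K754M, against 21.7 and 17.6 in EloA_WT (−0.74, limma adjusted p = 0.188). The 7 members on chromosome 11 had a median of −0.85, against −0.46 for other genes of the chromosome, and the 71 other members had a median of −0.28, against −0.03 for other genes elsewhere. Rps27a, which encodes a fusion of ubiquitin with a small-subunit protein, was the highest of the 7, with 25.6 and 14.0 RPKM in EloA_K754M, against 32.3 and 25.3 in EloA_WT (−0.59, limma adjusted p = 0.436).

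At the other end, 16 members had values above 0, and several of the higher ones rest on a single library. Rps21 had 39.2 and 98.6 RPKM in EloA_K754M, against 41.0 and 44.2 in EloA_WT (0.55, SE 0.51, limma adjusted p = 0.667), and −0.12 without EloA_K754M replicate 2. Rpl39l had 12.4 and 16.5 RPKM in EloA_K754M, against 8.17 and 13.2 in EloA_WT (0.46, SE 0.54, limma adjusted p = 0.742). For both the groups overlap. Rps15 had 13.0 and 28.0 RPKM in EloA_K754M, against 15.7 and 17.3 in EloA_WT (0.21, limma adjusted p = 0.827). Rpl8 had 63.0 and 140 RPKM in EloA_K754M, against 66.6 and 99.2 in EloA_WT (0.21, limma adjusted p = 0.867). Without EloA_K754M replicate 2 the changes of Rps15 and Rpl8 were −0.34 and −0.37. Rpl36 had 18.2 and 23.5 RPKM in EloA_K754M, against 23.2 and 14.0 in EloA_WT (0.19), values that overlap.

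Set directly against each other, EloA_K754M stood above EloA_K754R for most members, though 0 were called by limma (0.112% of all genes were called higher). An unadjusted p under 0.05 was found for 17 members (21.8%) and 18.5% of all genes. A voom fit to recovered reads, added after seeing the data, called 3 members, Rpl11 and Rpl13a among them, and 445 of 14915 genes in all. The median difference was 0.32, against 0.09 for all genes. It was above 0 for 73 of 78 members, against 60.5% of all genes, and for 51 after quantile normalization and 48 after the length trend was taken out. Both EloA_K754M libraries lay above both EloA_K754R libraries for 43 members (55.1%, against 31.9% of all genes) and below both for 1, Rps24. Without EloA_K754M replicate 1 the median difference was 0.10, and with all libraries it was 0.06 after quantile normalization and 0.11 without the length trend.

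Rpl39l had 12.4 and 16.5 RPKM in EloA_K754M, against 2.35 and 7.35 in EloA_K754R (1.75, SE 0.54, limma adjusted p = 0.181). It made up 37.2% and 53.7% of the summed level of Rpl39l and Rpl39 in EloA_K754M, 11.7% and 32.7% in EloA_K754R, 23.0% and 39.9% in EloA_WT, 18.8% in Eed_null and 17.0% in CJ7_WT. The share is above both EloA_K754R values in both EloA_K754M libraries, but it overlaps EloA_WT. Rpl13a had 12.5 and 12.2 RPKM in EloA_K754M, against 7.47 and 6.74 in EloA_K754R (0.79, SE 0.12, limma adjusted p = 0.0695), and Rpl11 had 1.30 and 1.13 against 0.641 and 0.719 (0.75, SE 0.14, limma adjusted p = 0.0933), EloA_K754M first. Against EloA_WT, the change of Rpl13a in EloA_K754M was 0.05 and that of Rpl11 −0.07. Rps21 had 39.2 and 98.6 RPKM in EloA_K754M, against 20.6 and 39.3 in EloA_K754R (1.13, SE 0.51, limma adjusted p = 0.306), values that overlap. At the other end stood Rps24, with 33.8 and 28.4 RPKM in EloA_K754M, against 34.7 and 37.0 in EloA_K754R (−0.21, SE 0.17, limma adjusted p = 0.561). Rpl37a (−0.08) and Rpl28 (−0.06) followed, and without EloA_K754M replicate 2 or replicate 1 they were at 0.22 and 0.12.

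Short introns were followed separately, since in EloA_K754R other genes also had lower values where their introns are short. For introns under 1 kb the median change in EloA_K754R was −0.74 over 17 members and −0.32 over 1167 other genes. It was −0.58 and −0.34 at 1 to 2.5 kb (25 members), −0.63 and −0.31 at 2.5 to 5 kb (18 members), and −0.64 and −0.27 at 5 to 10 kb (15 members). The members were thus lower than other genes of their length in each of these bins, and their own median hardly moved with length. In EloA_K754M the medians were −0.24 and −0.02 under 1 kb and −0.37 and −0.13 at 5 to 10 kb. Other genes of under 5 kb that were as abundant, with a mean of at least 10 RPKM, had a median of −0.52 in EloA_K754R, over 228 genes. Those 228 genes stood at −0.02 in EloA_K754M, where all tested members stood at −0.29, and at 0.49 between the mutants, where all tested members stood at 0.32. The 2 sets are not matched. The 228 genes had a median intron length of 447 bp, against 2411 bp over the 78 tested members, which were not limited by length or level here.

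**Figure D4:**
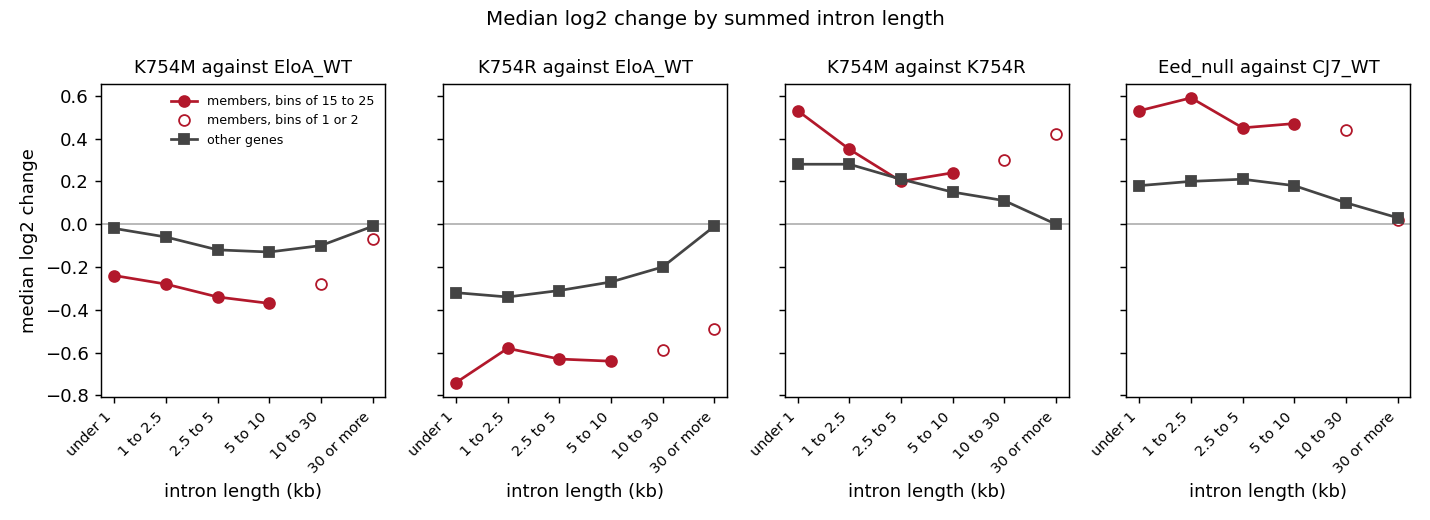
Median log2 change by summed intron length for the members (red; open points are bins of 1 or 2 genes) and for other genes (grey) in the 4 comparisons. In EloA_K754R against EloA_WT the members lie between −0.74 and −0.58 in the 4 bins up to 10 kb, against −0.34 to −0.27 for other genes.

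Other gene families of protein synthesis and housekeeping had medians nearer to 0. In EloA_K754R the 76 mitochondrial ribosomal protein genes had a median of −0.42 (5 called lower), the 83 tested subunits of oxidative phosphorylation −0.35 (5 lower, 1 higher) and the 46 tested proteasome subunits −0.25. The 65 tested translation initiation and elongation factors had −0.19 (1 called lower) and 44 genes of ribosome assembly and RNA polymerase I −0.12 (1 called lower). The 19 other genes known for a TOP start had −0.26. Of the 78 cytosolic ribosomal protein genes 5 were called lower (6.41%), against 2.79% of all genes. By calls they did not stand apart from the mitochondrial ribosomal protein and oxidative phosphorylation genes, which are sets of like size. With the trend over intron length removed the median was −0.30 for the ribosomal protein genes, −0.16 for the mitochondrial ones and −0.04 for the other TOP genes. The order of these medians is a description of the families and carries no test.

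**Figure D5:**
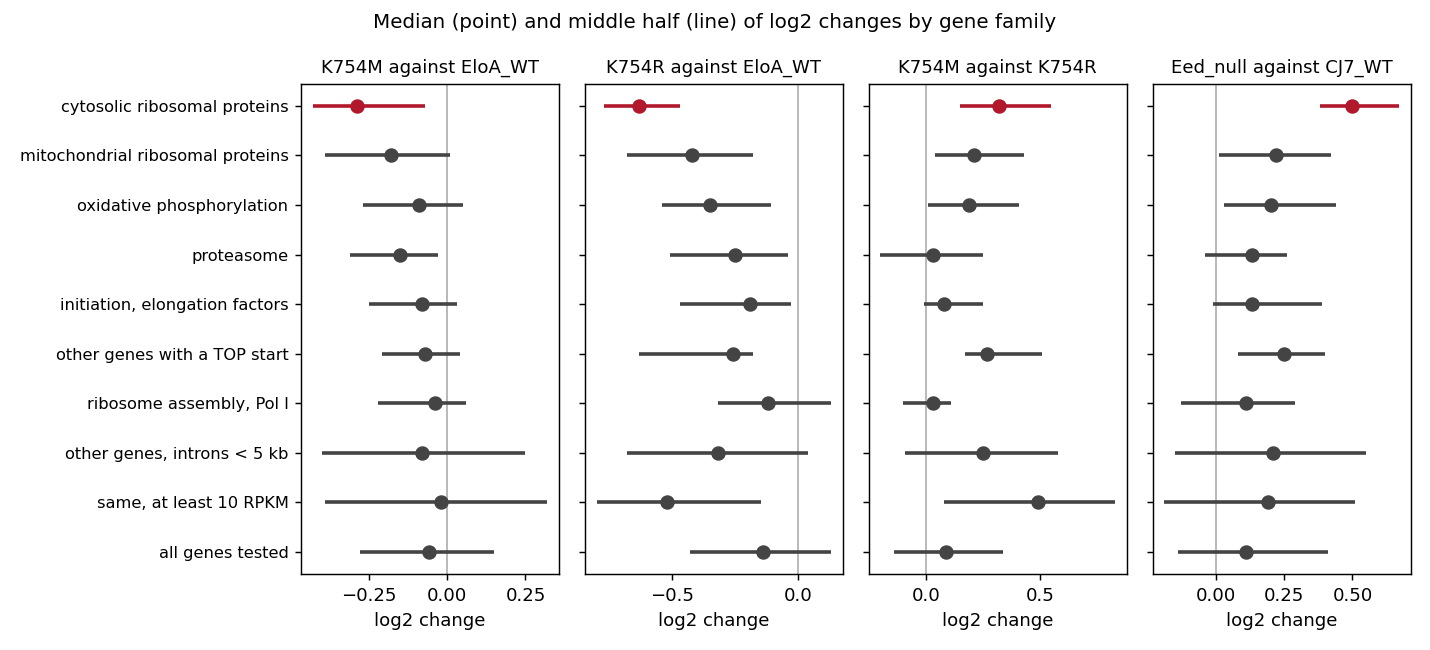
Median (point) and interquartile range (line) of the log2 changes of 10 gene sets in the 4 comparisons, cytosolic ribosomal protein genes in red at the top. Their medians are −0.29, −0.63, 0.32 and 0.50, against −0.06, −0.14, 0.09 and 0.11 for all genes tested, and no family has a lower median in EloA_K754R or a higher one in Eed_null.

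Genes that regulate ribosomal protein synthesis were mostly not called, as were most genes of the table, of which 2.79% were called lower in EloA_K754R. Of 18 listed regulators, 1 fell in EloA_K754R, Trp53, which encodes p53 and lies on chromosome 11, with 4.56 and 5.75 RPKM in the EloA_K754R libraries, against 8.92 and 9.84 RPKM in EloA_WT (−0.86, limma adjusted p = 0.0470). Of the assembly genes, Ubtf, a factor of RNA polymerase I also on chromosome 11, had 6.87 and 6.34 RPKM in the EloA_K754R libraries, against 10.1 and 10.7 RPKM in EloA_WT (−0.65, limma adjusted p = 0.0471). On chromosome 11, 150 of 1307 genes other than the members were called lower in EloA_K754R. Myc, a transcription factor that raises ribosomal protein genes, had 0.462 and 0.811 RPKM in the EloA_K754R libraries, against 0.297 and 0.703 RPKM in EloA_WT, values that overlap (0.34, limma adjusted p = 0.682). Mtor, the kinase that acts on TOP mRNAs, had 0.846 and 0.806 RPKM in the EloA_K754R libraries, against 1.14 and 0.978 RPKM in EloA_WT (−0.32, limma adjusted p = 0.229). Both Mtor libraries of EloA_K754R lie below EloA_WT. Among TOP genes, Eef1a1, the main elongation factor, had 13.8 and 12.9 RPKM in the EloA_K754R libraries, against 20.6 and 21.7 RPKM in EloA_WT (−0.66, limma adjusted p = 0.0562).

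Eed_null against CJ7_WT asks how loss of Polycomb repressive complex 2 goes with these genes, with 1 pooled column a group and so no test. The ratio was above 1 for 77 of 79 members, against 61.8% of 14890 genes, and 29 members (36.7%) were more than 1.5-fold higher, against 16.0% of all genes. The count more than 1.5-fold lower was 0. The median log2 ratio was 0.50, against 0.11 for all genes, and 0.34 with equal medians of both columns, when that of all genes was −0.04. Small-subunit members had a median of 0.52 and large-subunit members 0.50. In the length bins up to 10 kb the members stood above other genes, with medians of 0.53 over members and 0.18 over other genes under 1 kb, and 0.47 and 0.18 at 5 to 10 kb.

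Rpl41 had 44.9 RPKM in Eed_null and 20.8 in CJ7_WT, from 90 and 50 reads, a ratio of 2.15 with an exact 95% interval of 1.51 to 3.11. Rpl27a had 27.0 RPKM in Eed_null and 13.1 in CJ7_WT, a ratio of 2.06 (1.73 to 2.47), and Rpl18 6.96 and 3.52, a ratio of 1.98 (1.76 to 2.23). Rps2 had 5.10 RPKM in Eed_null and 2.65 in CJ7_WT, a ratio of 1.93 (1.72 to 2.16). These intervals cover counting error only, and with reads counted more than once they may be too narrow. At the low end, Rpl24 had 5.53 RPKM in Eed_null and 6.22 in CJ7_WT, a ratio of 0.89 (0.87 to 0.91), and Rpl3l 0.107 and 0.145, from 29 and 47 reads, a ratio of 0.74 with an interval that spans 1. Rps27l had 4.30 RPKM in Eed_null and 3.82 in CJ7_WT (ratio 1.13), and Rpl11 1.13 and 0.972 (ratio 1.16). Rps27l and Rpl24 were also among the members that differed least in EloA_K754R, while Rpl11 was called lower there (−0.82) and Rpl3l was not tested.

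The fixed set of well-known members lay within this range. Rplp0 had 11.4 RPKM in Eed_null and 6.28 in CJ7_WT (ratio 1.82), Rps6 11.9 and 7.90 (1.51), Rps19 18.3 and 13.8 (1.33), Rpl5 19.2 and 14.2 (1.35), and Rpl3 45.1 and 31.4 (1.44), Eed_null first. Rpsa had 17.2 RPKM in Eed_null and 11.2 in CJ7_WT (1.53), Rps27 13.8 and 8.87 (1.55) and Rps27a 18.5 and 14.8 (1.25). Each of these 8 genes was thus higher in Eed_null by its pooled value. The 7 members on chromosome 11 had a median log2 ratio of 0.32, against 0.03 for other genes of the chromosome. Among related genes, Mdm2, which restrains p53, had 11.4 RPKM in Eed_null and 27.5 in CJ7_WT (log2 ratio −1.26), and Mycn, a relative of Myc, had 4.00 and 1.93 (1.02).

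The pooled columns stood below the EloA libraries for most members. CJ7_WT lay below both EloA_WT libraries for 75 of 78 members (96.2%), against 53.1% of all genes, with a median log2 difference of −1.50. Eed_null lay below both EloA_WT libraries for 71 (91.0%), against 48.7% of all genes. CJ7_WT also lay below both EloA_K754M libraries for 74 members, against 50.1% of all genes, and below both EloA_K754R libraries for 71, against 46.5%. Rps12 shows the range, at 95.8 and 56.8 RPKM in EloA_K754M, 57.5 and 52.9 in EloA_K754R, 110 and 91.9 in EloA_WT, 38.4 in Eed_null and 21.6 in CJ7_WT. Its listed introns span 2480 bp, against 66 bp in GENCODE, and whether other transcripts add to its values was not tested. Line, culture and library preparation cannot be told apart in these columns, and the abundant other genes with short introns also had a median of −1.57 in CJ7_WT against EloA_WT.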

How the data were processed

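Per the labels' protocols, labelled RNA was captured with an antibody against bromouridine and depleted of ribosomal RNA, and per the submitters' processing notes reads were aligned with BWA to mm9. The authors deposited intronic RPKM in 1 table of 8 columns. The counter, gene annotation, strand handling and depth behind the RPKM are not given in the sources that were used. Whole reads could be recovered from the deposited RPKM for 21516 of 21516 genes with at least 5 columns above 0 (100.0%; tolerance 0.003 reads, and 0.06 where values are high), also in the pooled columns, and gave intron lengths. Their sum exceeds the depth that the values imply (14.7 to 21.7 M a library), so reads in introns of overlapping transcripts seem to be counted more than once.

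log2(RPKM + 0.1) of the 6 EloA libraries entered limma 3.58.1 (R 4.3.3; 1 fit of 3 groups, eBayes with a trend, 3 residual and 2.76 prior degrees of freedom) for the 15161 genes whose mean reached 0.1 RPKM. Two-sided p-values were adjusted by Benjamini-Hochberg across these genes, and 0.05 was the threshold. The script was tested on simulated data. A gene is called, and is said to fall, when its adjusted p is below that. Eed_null and CJ7_WT were compared as log2 ratios over 14890 genes, with exact intervals of read ratios (scipy 1.17.1). Chromosomes came from gene annotation of a later build (91.9% of genes matched).

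Named members were those called, the 6 largest changes each way in each mutant, the 3 each way between mutants, the 4 each way in Eed_null, the 5 highest and 5 lowest by level, and 10 fixed genes. Some genes that this rule or the lists name are not reported here. The members, the lists and the alternatives were chosen with earlier results of these data known. Alternatives were other pseudocounts, filters, scalings, removal of the trend over intron length, a replicate block, chromosome 11 left out, no variance trend, and each library left out. A voom fit to the recovered reads and a fit to introns of at least 1000 bp were added after seeing the data.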

Additional observations from a re-analysis of the deposited data

How the results depend on the processing

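Called members were few and close to the threshold, and their number moved with the processing. In EloA_K754R against EloA_WT limma called 5 members, and 0 with no filter on level, with equal library medians, after quantile normalization, after the length trend was taken out and without chromosome 11, and 1 with no variance trend. Over all genes the calls were 527, and 160, 324, 333, 242, 204 and 228 with these settings in the same order. It called 17 with a replicate block (Rpl23a, Rpl38 and Rpl26 among them, with limma adjusted p = 0.0372, 0.0488 and 0.0302), 18 with voom on recovered reads and 15 of 61 with introns of at least 1000 bp. Calls over all genes rose too, to 1777 of 15161 with the block, 1347 of 14915 with voom and 1325 of 13731 with such introns. In EloA_K754M against EloA_WT it called 0, and 2 with voom and 1 with introns of at least 1000 bp (33, 349 and 300 over all genes). Between the mutants it called 0, and 1 (Rpl13a) with the replicate block, 3 with voom and 1 with introns of at least 1000 bp. Over all genes these calls were 44, 355, 445 and 335. Leaving out 1 library leaves 1 library in a group, and no member was called there in any comparison. The cause was not tested.

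The median in EloA_K754R was −0.24 after quantile normalization and −0.30 after the length trend was taken out, and −0.72 to −0.57 with 1 library left out. It was −0.48 to −0.14 in EloA_K754M with 1 library left out. Between the mutants it was 0.06 after quantile normalization, 0.11 after the length trend was taken out and 0.10 to 0.46 with 1 library left out. Equal library medians moved the median of all genes to 0.07 in EloA_K754M (−0.06 as deposited) and to 0.05 in EloA_K754R (−0.14 as deposited), with members at −0.16 and −0.44. In Eed_null against CJ7_WT the median stayed between 0.30 and 0.50.

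Of 596 alternatives for single named members, 503 kept direction and call, 58 lost a call, 12 gained one and 23 changed sign. In EloA_K754R the changes of sign were for Rpl24 (0.04), Rps24 (0.05) and Rps27l (0.15) with equal library medians, Rpl15 (0.04), Rps3a (0.02), Rpl24 (0.03), Rps24 (0.37) and Rps27l (0.11) after quantile normalization, and Rpl28 (0.00), Rpl15 (0.00), Rps24 (0.11) and Rps27l (0.30) after the length trend was taken out.

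With 1 library left out, the change in EloA_K754M ran from −0.17 to 0.55 for Rpl36, −0.37 to 0.78 for Rpl8, −0.34 to 0.76 for Rps15 and −0.12 to 1.21 for Rps21. In EloA_K754R it ran from −0.40 to 0.31 for Rps27l. Between the mutants it ran from −0.37 to 0.22 for Rpl37a and −0.24 to 0.12 for Rpl28.

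Replicate 1 libraries deviated together (correlation of deviations 0.15, 0.17 and 0.20 over all genes and 0.41, 0.53 and 0.52 over members), but the labels do not say that the numbers mark a pairing, so the block is an alternative only. Depth limits Rpl41 and other members with introns of under 1000 bp, whose values rest on as few as 47 reads.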
